A study of Rattus norvegicus with 12 samples.

Results

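The genes of the cell cycle and the mitotic machinery were examined in fetal rat kidneys from mothers under chronic photoperiod shifting (CPS) and from control mothers (LD). Members were the genes whose symbol belongs to the numbered cyclin-dependent kinases (Cdk), the A, B, D and E cyclins, the Cks subunits, the centromere proteins (Cenp), the minichromosome maintenance (Mcm) and GINS helicase subunits, the Cdc genes, the E2F factors or the numbered kinesins (Kif). Of 14556 genes measured under a single symbol, 99 were members. Membership went by symbol alone, so it also took in kinesins outside mitosis, effectors of the GTPase Cdc42 and kinases outside the core cycle. By role, 14 members act in DNA replication, 13 form the cyclin and kinase role and 2 are E2F factors. The cyclin and kinase role holds cyclins and cyclin-dependent kinases of the cycle with their subunits, and also Cdc34 and Cdc37, which are none of these. A further 30 act in mitosis, of which 14 are centromere proteins, 11 mitotic kinesins and 5 parts of the anaphase-promoting complex. The other 40 members are 14 kinesins outside mitosis, 10 genes named for Cdc42, 8 other cyclin-dependent kinases and 8 further names. These kinesins are called transport kinesins below, though some, such as Kif7, Kif26b and Kif27, are not known as cargo carriers. Of the 8 further names, some share only the prefix, such as Mcm3ap and Cdc5l, while Cks2l1, Cenpwl1 and Cdc37l1 are named as relatives of members. Some central genes, among them Cdk2, Mcm5 and E2f1, were not measured under a single symbol and were not analysed here.

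The CPS kidneys came from fetuses of Sprague-Dawley rats whose light cycle was reversed again and again during pregnancy, with a return to the regular cycle shortly before tissue collection. The LD kidneys came from fetuses of Sprague-Dawley rats kept under a regular photoperiod with 12 h of light throughout pregnancy. All fetuses were taken at 19 days of gestation. Each array (6 CPS and 6 LD) held RNA of one pool of kidneys from 6 non-sexed fetuses of one mother, so the spread within a group is the spread between litters. The hour of collection is 20 in one label field and 8 in another, and the study's methods give 8 for the array samples. In such whole-organ RNA, fewer dividing cells and less RNA per dividing cell cannot be told apart.

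Array medians lay between 3.31 and 3.50 on the log2 scale, every pair of arrays correlated between 0.978 and 0.987, and no array stood apart by these measures. All 17 measured of 27 kidney marker genes were above the level of genes for odorant receptors, which the kidney hardly uses (95th percentile 2.66), and their mean log2 level was 7.43 to 7.72 in CPS arrays and 7.32 to 7.62 in LD arrays. Markers of other tissues were measured too: 15 of 20 liver markers averaged 4.56 to 6.66 in CPS arrays and 4.16 to 6.25 in LD arrays (exact permutation p = 0.204), and 12 of 17 adrenal cortex markers averaged 3.38 to 3.98 in CPS arrays and 3.21 to 3.59 in LD arrays (exact permutation p = 0.0433, 0.212 when adjusted over 6 marker lists). Of these 12, 8 were above the odorant receptor level, and the steroidogenic enzymes Cyp11b1, Cyp11b2, Cyp17a1 and Hsd3b2 were at or under it. At an unadjusted limma p under 0.05, 5 of the 12 were higher in CPS kidneys and 0 lower. Of all 14556 genes measured under a single symbol, 2.94% were higher and 1.78% lower. Differences were negative for 4 of the 12. Skeletal muscle markers (8 of 13 genes) averaged 4.22 to 7.63 in CPS arrays, highest in CPS replicate 1, and 4.01 to 5.41 in LD arrays, erythroid markers (8 of 13 genes) 4.99 to 5.94 in CPS arrays and 4.82 to 5.59 in LD arrays, and leukocyte markers (8 of 11 genes) 4.90 to 5.28 in CPS arrays and 4.86 to 5.21 in LD arrays. Negative differences were found for 1 of 17 kidney, 0 of 15 liver, 0 of 8 skeletal muscle, 1 of 8 erythroid and 4 of 8 leukocyte markers. Over all named genes 46.4% were negative. The exact permutation p was 0.082 for the kidney list and 0.106 for the skeletal muscle list, both 0.212 when adjusted. The part of these other tissues in the differences below was not tested, except in a limma fit that took the mean liver and mean adrenal cortex marker level of each array as covariates (below, the tissue covariates).

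A cell that divides first licenses its origins with the Mcm helicase, copies its DNA in S phase once Cdc45 and GINS have joined that helicase, and then enters mitosis under cyclin B and Cdk1. In mitosis the centromere proteins build the kinetochore on each chromosome, kinesins shape the spindle, and the anaphase-promoting complex destroys the cyclins. E2F factors switch on many replication genes before S phase, while many mitotic genes are switched on later through the cell cycle homology region (CHR) that the DREAM and MuvB complexes bind. In the late fetal kidney, nephron progenitors, ureteric tips and the growing tubules still divide, and nephron formation in the rat goes on until after birth.

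The promoters of 6 members are shown because these genes carry the comparisons that follow: CKS1B and Cenpi, which were lower in CPS kidneys, Kif16b, which was higher, Cdk1, the kinase that drives mitosis, and Mcm6 and Gins1, subunits of the replicative helicase. Each is the RefSeq sequence of assembly GRCr8 around the start of the gene, 300 bases long and read along the gene. In capitals are the CHR word TTTGAA and the E2F words TTTCCCGC, TTTCGCGC, TTTGGCGC and TTTGCCGC, on either strand. CKS1B lies at chr2:177135284-177135583 on the minus strand, Cenpi at chrX:101809409-101809708 on the plus strand, Kif16b at chr3:150707536-150707835 on the minus strand, Cdk1 at chr20:19265043-19265342 on the plus strand, Mcm6 at chr13:42404303-42404602 on the minus strand and Gins1 at chr3:160184670-160184969 on the plus strand.
CKS1B: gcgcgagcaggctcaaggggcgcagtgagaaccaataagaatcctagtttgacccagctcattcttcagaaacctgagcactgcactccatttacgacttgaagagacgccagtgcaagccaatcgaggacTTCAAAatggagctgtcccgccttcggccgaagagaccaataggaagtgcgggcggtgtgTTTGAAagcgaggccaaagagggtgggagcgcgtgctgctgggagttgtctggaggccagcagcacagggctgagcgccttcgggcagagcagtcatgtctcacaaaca
Cenpi: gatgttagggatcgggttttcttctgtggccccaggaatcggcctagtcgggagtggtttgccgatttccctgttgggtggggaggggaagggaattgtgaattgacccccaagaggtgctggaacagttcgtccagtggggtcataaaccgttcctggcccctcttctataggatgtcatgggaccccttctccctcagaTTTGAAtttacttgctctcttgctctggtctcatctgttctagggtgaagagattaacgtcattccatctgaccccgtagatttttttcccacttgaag
Kif16b: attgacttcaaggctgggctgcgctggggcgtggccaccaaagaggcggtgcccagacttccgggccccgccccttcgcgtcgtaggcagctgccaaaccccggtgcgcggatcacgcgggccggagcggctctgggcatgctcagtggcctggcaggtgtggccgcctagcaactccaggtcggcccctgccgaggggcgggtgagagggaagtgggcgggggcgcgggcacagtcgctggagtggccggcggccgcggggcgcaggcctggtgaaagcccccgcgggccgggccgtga
Cdk1: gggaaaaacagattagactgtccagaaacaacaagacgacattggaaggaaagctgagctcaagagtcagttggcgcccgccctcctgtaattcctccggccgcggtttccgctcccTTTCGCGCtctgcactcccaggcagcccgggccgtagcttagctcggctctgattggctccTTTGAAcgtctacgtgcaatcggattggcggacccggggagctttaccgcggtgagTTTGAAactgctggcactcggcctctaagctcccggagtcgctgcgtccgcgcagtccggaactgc
Mcm6: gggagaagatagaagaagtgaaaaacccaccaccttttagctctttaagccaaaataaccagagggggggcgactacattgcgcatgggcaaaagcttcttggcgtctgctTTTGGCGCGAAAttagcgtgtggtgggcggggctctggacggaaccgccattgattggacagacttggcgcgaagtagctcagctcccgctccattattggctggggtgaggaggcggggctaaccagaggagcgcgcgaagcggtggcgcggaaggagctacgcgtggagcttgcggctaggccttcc
Gins1: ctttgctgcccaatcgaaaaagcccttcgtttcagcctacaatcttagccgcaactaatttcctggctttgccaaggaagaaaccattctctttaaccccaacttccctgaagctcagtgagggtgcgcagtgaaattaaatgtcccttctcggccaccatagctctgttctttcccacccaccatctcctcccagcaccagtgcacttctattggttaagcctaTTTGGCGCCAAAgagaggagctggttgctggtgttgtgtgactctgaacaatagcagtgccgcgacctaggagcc

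The words were spread unevenly over the roles. RefSeq promoters were at hand for 79 of the 99 members, and an E2F word was found in 7 of 11 replication promoters (63.6%), Mcm2, Mcm3, Mcm6, Mcm7, Mcm8, Gins1 and Gins3, against 1 of 27 mitosis promoters (3.7%), 0 of 11 transport kinesin promoters and 2.14% of the 33469 rat promoters of the same length. The CHR word was found in 11 of 27 mitosis promoters (40.7%) and 4 of 11 promoters of the cyclin and kinase role (36.4%), Cdc34 and Cdc37 counted. It was in 3 of 11 replication promoters (27.3%) and 1 of 11 transport kinesin promoters (9.09%), against 18.3% of all promoters. The CCAAT box (CCAAT on either strand), often found beside both, was in 8 of 11 replication promoters and 14 of 27 mitosis promoters, against 37.5% of all. The E-box CACGTG, the word bound by the clock factors CLOCK and BMAL1, was in 5 of 79 member promoters (6.33%), against 6.42% of all promoters. In the sequences shown, CKS1B held 2 CHR words, Cdk1 held 2 CHR words and 1 E2F word, Cenpi held 1 CHR word and Kif16b held neither. The 2 E2F words of Mcm6 overlap each other on opposite strands, and so do the 2 of Gins1. A match in these letters is a description of the sequence.

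Few members differed between CPS and LD kidneys, and the differences were small. At an unadjusted limma p under 0.05, 2 of 99 members were higher in CPS kidneys (Kif16b and Cdk19) and 3 were lower (CKS1B, Cdc42ep2 and Cenpi), while 4.72% of all named genes passed the same threshold (2.94% higher and 1.78% lower). The members' 5 calls are 5.05% of them, near that background. No member and no other transcript cluster passed after Benjamini-Hochberg adjustment over all 36685 clusters, where the lowest limma adjusted p was 0.887. The other 94 members did not pass. By the one-way test that the study's methods name, 4 members were higher and 7 lower, beside 5.92% of all named genes (3.36% higher and 2.56% lower), and none passed after adjustment. The median log2 difference, CPS minus LD, was -0.028 over the members and 0.0097 over all named genes, and 62 of the 99 members (62.6%) had a negative difference, against 46.4% of named genes. Of the members, 92 differed by less than 0.2 on the log2 scale in either direction, and for 94 the 95% interval of the difference lay within 0.5 of 0. The array medians, taken over all 36685 clusters, most of which have no symbol, differed by -0.037 on the log2 scale (CPS minus LD). Whether that shift applies to the named genes, whose own median difference was 0.0097, was not tested. With the arrays set to a common median the members' median was 0.0091, with 45.5% negative, against 0.047 and 33.4% for all named genes.

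**Figure D1:**
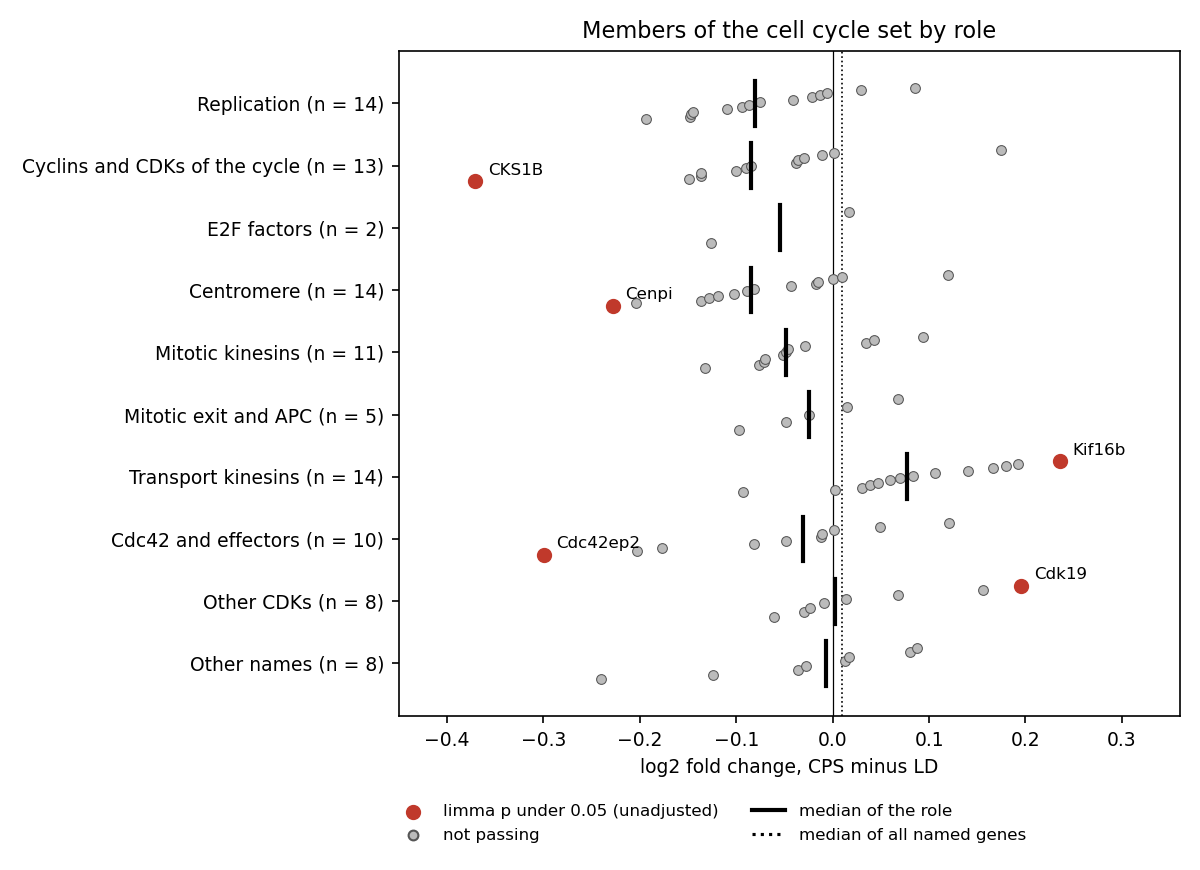
Log2 difference, CPS minus LD, of each of the 99 members (points), grouped by role, with the median of each role marked. Most replication genes, cyclins and centromere proteins lie a little under 0, 13 of 14 transport kinesins lie above it, and only 5 members passed an unadjusted limma p of 0.05.

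CKS1B, the small docking subunit that binds cyclin-dependent kinases and helps the SCF ligase to degrade the inhibitor Cdkn1b, had the lowest limma p of the members. Its log2 level was 5.50 at the lowest, 5.56 at the median and 5.76 at the highest in CPS kidneys, against 5.66, 5.99 and 6.09 in LD kidneys. Of the 6 CPS arrays, 5 lay below the lowest LD array, and the groups overlapped only through CPS replicate 6. The mean was 5.58 ± 0.09 in CPS kidneys and 5.95 ± 0.16 in LD kidneys (SD, n = 6 each), a log2 difference of -0.37 ± 0.08 (SE), or 0.773-fold (limma p = 0.000771, exact permutation p = 0.00433). It passed the limma threshold with any one of the 12 arrays left out and with the tissue covariates, where the difference was -0.41. The array annotation writes this symbol in capitals and gives it no gene number, so the match to rat Cks1b rests on the name alone.

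The other genes of the cyclin and kinase role did not pass the threshold. Of the 13, 11 had a negative difference, Cdc34 (-0.10) and Cdc37 (-0.04) among them, and the median of the 13 was -0.085. With a common array median 8 were negative and the median was -0.048, against 0.047 for all named genes. Cdk1, the kinase that drives entry into mitosis, measured 8.85 at the lowest, 9.04 at the median and 9.28 at the highest in CPS kidneys, against 9.11, 9.24 and 9.26 in LD kidneys. Of the CPS arrays, 4 lay below every LD array and 1 above every one, and the log2 difference was -0.15 ± 0.08 (SE, limma p = 0.0937, exact permutation p = 0.0779). It passed limma's threshold without CPS replicate 3 (-0.19) or CPS replicate 6 (-0.18). Cks2, the paralog of Cks1b, had a mean of 7.29 ± 0.17 in CPS kidneys and 7.42 ± 0.10 in LD kidneys (SD, n = 6 each), with a log2 difference of -0.14 (limma p = 0.143, exact permutation p = 0.126). Cyclin A2 (Ccna2), which acts in S phase and G2, had a log2 difference of -0.08 (exact permutation p = 0.0779). Cyclin B1 (Ccnb1), the partner of Cdk1, averaged 9.31 ± 0.08 in CPS kidneys and 9.32 ± 0.09 in LD kidneys (SD, n = 6 each), and the 95% interval of its log2 difference ran from -0.15 to 0.13. Ccnb3, a cyclin best known from meiosis, was at the odorant receptor level in both groups, with a mean of 1.83 in CPS kidneys and 1.66 in LD kidneys (limma p = 0.0536, exact permutation p = 0.0368). Ccna1, Ccnb2, Ccne1, Ccne2, Cdk4, Cdc34 and Cdc37 make up the rest of this role, and none passed.

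**Figure D2:**
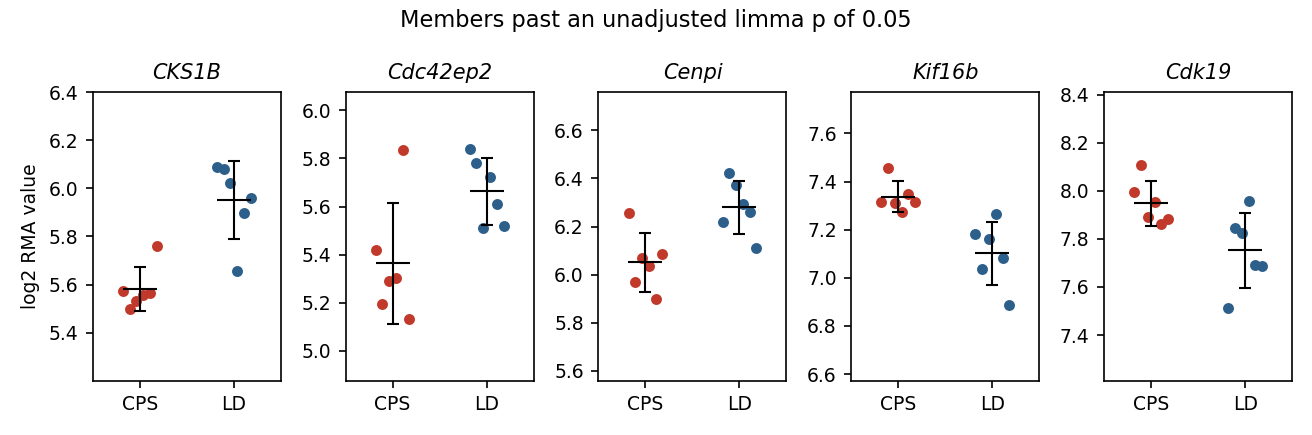
Log2 level of the 5 members with an unadjusted limma p under 0.05, with 6 CPS arrays (left) and 6 LD arrays (right) for each, 1 point an array and the mean and SD beside them. CKS1B, Cenpi and Cdc42ep2 sit lower in CPS kidneys, Kif16b and Cdk19 higher, and only Kif16b shows no overlap of the groups.

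None of the 14 replication genes passed the limma threshold. Of these, 12 had a negative difference, against 46.4% of named genes, and their median was -0.081. With a common array median 9 were negative, against 33.4% of named genes. By the methods' one-way test Gins4, Mcm2 and Mcm6 were lower in CPS kidneys (3 of 14, beside 2.56% of named genes lower), and with limma's trended robust prior Gins1, Gins4 and Mcm2 were. Gins4, a subunit of the GINS complex that couples the Mcm helicase to the polymerases, came nearest. It measured 7.20 at the lowest, 7.30 at the median and 7.65 at the highest in CPS kidneys, against 7.40, 7.54 and 7.72 in LD kidneys, so that 4 CPS arrays lay below all LD arrays. The log2 difference was -0.19 ± 0.09 (SE, limma p = 0.0530, exact permutation p = 0.0519). Gins4 also passed limma's threshold with array weights and with only clusters at or above the median level kept (the level filter). It passed too without CPS replicate 6 (-0.25), LD replicate 1 (-0.21) or LD replicate 4 (-0.22). Gins1, of the same complex, measured 7.59, 7.84 and 8.03 at the lowest, median and highest in CPS kidneys and 7.88, 8.01 and 8.04 in LD kidneys. Its log2 difference was -0.15 (limma p = 0.0788, exact permutation p = 0.0390), and 4 of 6 CPS arrays were below the lowest LD array. It passed limma's threshold without CPS replicate 3 (-0.19).

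The Mcm subunits, which form the ring of the helicase, differed by less than 0.15 on the log2 scale. Mcm2 measured 9.21, 9.26 and 9.32 at the lowest, median and highest in CPS kidneys, against 9.31, 9.34 and 9.41 in LD kidneys, with 5 of 6 CPS arrays below every LD array. Its log2 difference of -0.09 ± 0.05 (SE) missed the limma threshold (p = 0.104), which weighs the small spread of this gene against that of all others, while the exact permutation p was 0.00649. Mcm6 measured 9.62, 9.70 and 9.76 in CPS kidneys and 9.74, 9.79 and 9.81 in LD kidneys, lowest, median and highest, with 4 CPS arrays below all LD arrays (-0.08, limma p = 0.181, exact permutation p = 0.0152). Mcm3 differed by -0.14 (exact permutation p = 0.279), Mcm7 by -0.04 (p = 0.0866) and Mcm4 by -0.02 (p = 0.569) on the log2 scale, each with overlapping groups. With the tissue covariates the difference of Mcm3 was -0.33 and passed limma's threshold. Cdc6, Cdc7, Cdc45, Gins2, Gins3, Mcm8 and Mcm9 complete the role, and none passed.

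**Figure D3:**
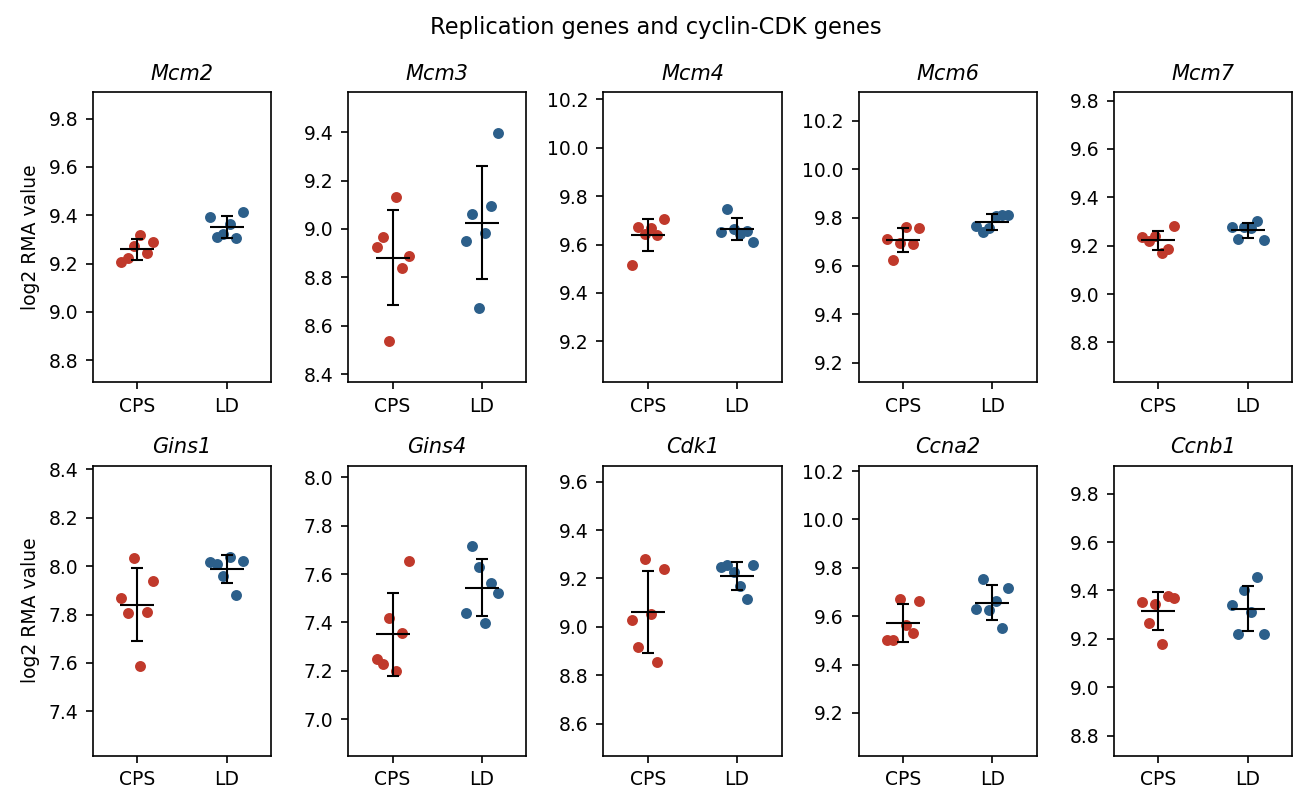
Log2 level of replication genes and of cell cycle kinases and cyclins, with 6 CPS arrays (left) and 6 LD arrays (right) for each gene, 1 point an array, with the mean and SD. The CPS means of Mcm2, Mcm6, Gins1 and Gins4 are 0.08 to 0.19 below the LD means, whereas the arrays of Ccnb1 and Mcm4 largely overlap.

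Among the mitosis genes, 1 of 30 was lower in CPS kidneys and none was higher, beside 1.78% lower and 2.94% higher of all named genes. A negative difference was found for 22 of the 30, against 46.4% of named genes, and the median was -0.049. With a common array median 18 were negative, against 33.4% of named genes. Cenpi, a subunit of the inner kinetochore that is bound to the centromere throughout the cycle, was the mitosis gene that passed. It measured 5.90 at the lowest, 6.05 at the median and 6.26 at the highest in CPS kidneys, against 6.11, 6.28 and 6.42 in LD kidneys, and 5 of 6 CPS arrays lay below the lowest LD array. The mean was 6.05 ± 0.12 in CPS kidneys and 6.28 ± 0.11 in LD kidneys (SD, n = 6 each), a log2 difference of -0.23 ± 0.08 (SE, limma p = 0.0121, exact permutation p = 0.00866), which passed with any one array left out. The call was lost with arrays set to a common median (-0.19) and with the tissue covariates (-0.20).

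Other centromere proteins had differences of both signs and did not pass in the limma fit of all arrays. Cenpf, a large kinetochore protein that builds up in G2, measured 8.50, 8.63 and 8.73 at the lowest, median and highest in CPS kidneys and 8.36, 8.53 and 8.57 in LD kidneys. Here 5 of 6 CPS arrays were above every LD array (0.12 ± 0.06, SE, limma p = 0.0853, exact permutation p = 0.0260), and it passed by the one-way test, with the trended robust prior and without CPS replicate 3 (0.15). Cenpp, a further inner kinetochore subunit, differed by -0.20 (exact permutation p = 0.123), and Cenpa, the histone variant that marks the centromere, by -0.02 (p = 0.842) on the log2 scale. Cenpp passed with the tissue covariates (-0.33) and without CPS replicate 6 (-0.26). Over the 14 centromere proteins, 11 differences were negative and the median was -0.085. With a common array median 9 were negative and the median was -0.048, against 0.047 for all named genes.

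The mitotic kinesins did not pass in either direction. Kif11, which pushes the spindle poles apart, averaged 8.61 ± 0.06 in CPS kidneys and 8.68 ± 0.06 in LD kidneys (SD, n = 6 each), with a log2 difference of -0.07 (limma p = 0.245, exact permutation p = 0.0866). Kif20a, needed for cytokinesis, differed by -0.08 (exact permutation p = 0.147) and Kif2a, which shortens microtubules, by 0.09 (p = 0.219) on the log2 scale. Of the anaphase-promoting complex, Cdc23 averaged 8.72 ± 0.08 in CPS kidneys and 8.82 ± 0.06 in LD kidneys (SD, n = 6 each; limma p = 0.131, exact permutation p = 0.0433), with every CPS array below the LD median. Its partners Cdc27 (0.07, exact permutation p = 0.128) and Cdc16 (-0.05, p = 0.294) and the activator Cdc20 (0.02, p = 0.792) had small log2 differences of mixed sign.

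Both measured E2F factors, which act chiefly as repressors in resting cells, had overlapping groups. E2f4 averaged 7.79 ± 0.11 in CPS kidneys and 7.77 ± 0.14 in LD kidneys (SD, n = 6 each; exact permutation p = 0.816), and E2f5 averaged 3.76 ± 0.25 in CPS kidneys and 3.89 ± 0.12 in LD kidneys (SD, n = 6 each; exact permutation p = 0.281).

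Set side by side, replication and mitosis genes both had negative medians, and the size of these medians was not compared by a test. The median log2 difference was -0.081 over 14 replication genes and -0.049 over 30 mitosis genes, against 0.0097 over all named genes, and no set test was made. Within mitosis it was -0.085 for centromere proteins, -0.048 for mitotic kinesins and -0.025 for the anaphase-promoting complex. With each gene centred on its mean over the 12 arrays, the median replication gene ran from -0.068 to 0.024 in CPS arrays and from 0.0054 to 0.081 in LD arrays. Only CPS replicate 6 was positive among the CPS arrays, while all 6 LD arrays were. The median mitosis gene ran from -0.094 (replicate 5) to 0.049 (replicate 6) in CPS arrays and from -0.012 to 0.065 in LD arrays, with clear overlap. Together with the cyclin and kinase role and the E2F factors these are 59 genes. Of the 59, 0 were higher and 2 lower, beside 2.94% higher and 1.78% lower of all named genes. Their differences were negative in 46 (78.0%), against 46.4% of named genes, with a median of -0.052. With a common array median the replication median was -0.044, the mitosis median -0.011 and the share of negative differences among the 59 genes 61.0%. The median of all named genes was then 0.047, and 33.4% of their differences were negative. The CPS arrays with the highest replication and mitosis medians (replicate 6) and the lowest (replicate 5) had the lowest liver marker levels of their group, 4.56 and 4.85.

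**Figure D4:**
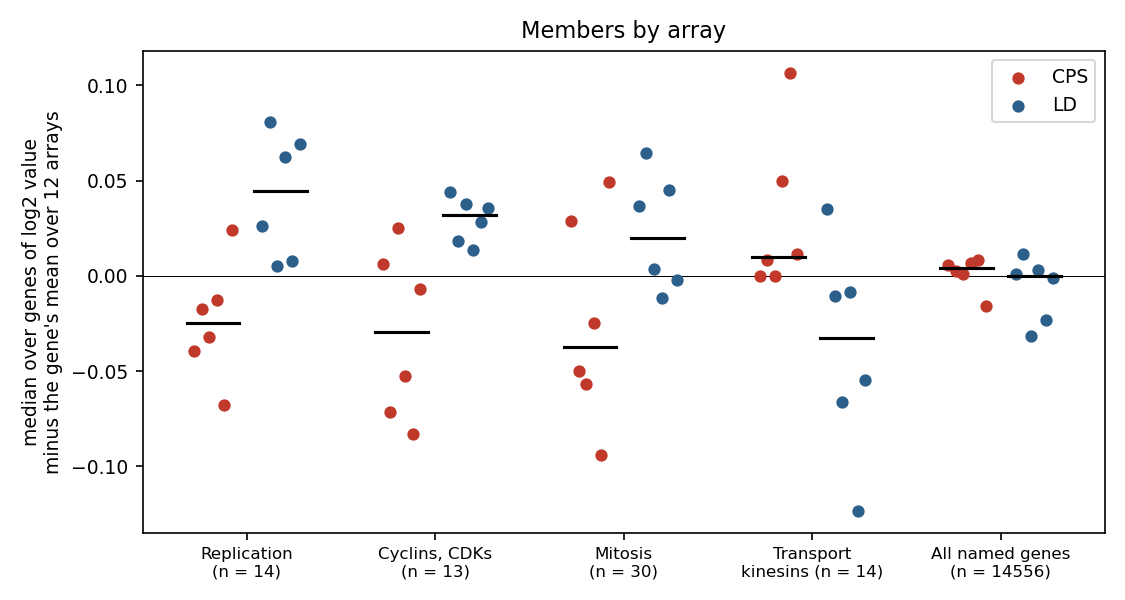
Median centred log2 level of the genes of a role in each array, for 6 CPS arrays (left) and 6 LD arrays (right), 1 point an array and a bar at the group's median, with all named genes at the far right. For replication genes the CPS arrays run from -0.068 to 0.024 and the LD arrays from 0.0054 to 0.081, and for transport kinesins the CPS arrays run from 0 to 0.107 and the LD arrays from -0.123 to 0.035.

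The kinesins outside mitosis had the opposite sign. Of these 14 transport kinesins, 13 had a positive difference, Kif7 (0.11), Kif26b (0.08) and Kif27 (0.19) among them. Higher in CPS kidneys at the threshold was 1, beside 2.94% of all named genes. The median of the 14 was 0.077, or 0.114 with a common array median, against 0.0097 and 0.047 for all named genes. With the tissue covariates 3 of the 14 differences were negative and the median was 0.090. Kif16b, which carries early endosomes along microtubules, measured 7.27 at the lowest, 7.31 at the median and 7.46 at the highest in CPS kidneys, against 6.89, 7.12 and 7.26 in LD kidneys. All 6 CPS arrays were above all 6 LD arrays, which was so for no other member and, in either direction, for 0.295% of named genes. The mean was 7.34 ± 0.06 in CPS kidneys and 7.10 ± 0.13 in LD kidneys (SD, n = 6 each), a log2 difference of 0.24 ± 0.07 (SE), or 1.18-fold (limma p = 0.00675, exact permutation p = 0.00216, the smallest that 6 arrays against 6 can give). The call held with any one array left out and with the tissue covariates (0.24). Kif3c, a motor of the kinesin-2 family best known in neurons, differed by 0.18 (exact permutation p = 0.121) and Kif13b, a vesicle motor, by 0.14 (p = 0.0996) on the log2 scale.

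Of the 8 cyclin-dependent kinases outside the core cycle, 1 was higher in CPS kidneys, beside 2.94% of all named genes. Cdk19, a kinase of the Mediator complex that takes part in transcription, measured 7.86, 7.92 and 8.11 at the lowest, median and highest in CPS kidneys and 7.51, 7.76 and 7.96 in LD kidneys, so that every CPS array exceeded the LD median. The log2 difference was 0.20 ± 0.08 (SE, limma p = 0.0346, exact permutation p = 0.0238). The call was lost when CPS replicate 1, 2 or 4 or LD replicate 1, 5 or 6 was left out (0.15 to 0.19), and with the tissue covariates (0.18). Cdk18 differed by 0.16 (exact permutation p = 0.106) and Cdk14 by 0.07 (p = 0.292) on the log2 scale.

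Among the 10 genes named for Cdc42, a GTPase that organises actin and cell polarity, 1 was lower in CPS kidneys, beside 1.78% of all named genes. Cdc42ep2, an effector that binds Cdc42, measured 5.13, 5.30 and 5.84 at the lowest, median and highest in CPS kidneys, against 5.51, 5.67 and 5.84 in LD kidneys. CPS replicate 5 lay among the highest LD arrays and the other 5 CPS arrays lay below the lowest. The log2 difference was -0.30 ± 0.12 (SE, limma p = 0.0239, exact permutation p = 0.0368). It no longer passed without CPS replicate 2 (-0.27), CPS replicate 6 (-0.25) or LD replicate 1 (-0.26), with a common array median (-0.26) or with the tissue covariates (-0.15). Its relatives Cdc42ep3 (-0.18, exact permutation p = 0.0584) and Cdc42ep5 (-0.20, p = 0.0736) had log2 differences of the same sign, and 7 of the 10 genes did. Cdc42ep3 passed limma's threshold with the tissue covariates (-0.31), the trended robust prior and the level filter, and without CPS replicate 6 (-0.23), LD replicate 3 (-0.21) or LD replicate 4 (-0.20).

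The 8 further names showed no call. Cks2l1 was at the odorant receptor level, with a mean of 1.20 in CPS kidneys and 1.44 in LD kidneys (exact permutation p = 0.0714), and so was Ccnb1ip1, with a log2 difference of 0.09 (p = 0.455). Cdc37l1, a relative of the chaperone partner Cdc37, differed by -0.12 (exact permutation p = 0.288) on the log2 scale. In all, 94 members lay above the odorant receptor level and 5 did not.

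Genes of the same processes that the naming rule does not take in were counted beside the members. Of 34 other replication genes, 0 were higher and 0 lower, 25 had a negative difference and the median was -0.039. Of 34 other mitosis genes, 1 was higher (Spc24) and 1 lower (Melk), with a median of -0.021, and of 19 regulators 2 were higher (Lin52 and Pkmyt1) and 0 lower. None of 10 genes that restrain the cycle passed, of which 4 are inhibitors of cyclin-dependent kinases (Cdkn1b, Cdkn1c, Cdkn2b and Cdkn2c) and the others are Gadd45a, Gadd45b, Gadd45g, Ccng1, Ccng2 and Btg1. Over these 97 genes the count was 3 higher and 1 lower, against the background of 4.72%, with 67.0% of differences negative and a median of -0.028.

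Lin52, a subunit of the DREAM and MuvB complexes that read the CHR, measured 6.51, 6.52 and 6.72 at the lowest, median and highest in CPS kidneys and 6.22, 6.34 and 6.50 in LD kidneys, without overlap (0.20 ± 0.07, SE, limma p = 0.0178, exact permutation p = 0.00216). Groups without overlap were found for 0.295% of all named genes. The lowest CPS array (6.512) lay only just above the highest LD array (6.499). CPS replicate 5, at 6.72, stood apart from the next CPS array at 6.53. Pkmyt1, a kinase that holds Cdk1 inactive until mitosis, measured 5.27, 5.38 and 5.50 in CPS kidneys and 5.07, 5.23 and 5.27 in LD kidneys, with 5 of 6 CPS arrays above every LD array (0.17 ± 0.06, SE, limma p = 0.0175, exact permutation p = 0.00433). Both passed with any one array left out. Melk, a kinase abundant in dividing progenitors, had a log2 difference of -0.16 (limma p = 0.0294, exact permutation p = 0.00433) and Spc24, a subunit of the outer kinetochore, of 0.22 (limma p = 0.0310, exact permutation p = 0.0195), and both calls were lost with the tissue covariates (-0.17 for Melk and 0.26 for Spc24). Melk was also lost with a common array median (-0.12) and without CPS replicate 4 or LD replicate 2, 5 or 6 (-0.15 to -0.13), and Spc24 without CPS replicate 1, 3 or 6 or LD replicate 1 or 2 (0.16 to 0.21). Rpa3 (-0.29, exact permutation p = 0.121) and Rpa2 (-0.11, p = 0.0238), which coat single-stranded DNA at the fork, and the inhibitors Cdkn2c (-0.19, p = 0.0433) and Cdkn1c (0.09, p = 0.0736) did not pass limma's threshold, though Rpa3 did with the tissue covariates (-0.42).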

How the data were processed

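RNA of fetal kidney pools was hybridised to Affymetrix Rat Gene 2.1 ST arrays, 6 CPS and 6 LD. The authors made log2 values by background correction, quantile normalisation across arrays and probe summary (Robust Multiarray Average, RMA). The table deposited by the authors holds these log2 values for 36685 transcript clusters. The submitters' processing notes name RMA and the Affymetrix Expression Console, whose versions are not given in the sources used here. The number of arrays limits the precision, and no read depth applies.

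Genes were named from the platform annotation: 14824 clusters had 1 symbol, 829 several and 21032 none. Of the rows of one gene, that with the highest mean was kept, which concerned 3 members. Rows with several symbols were left out, 6 of which fit the naming rule. CPS and LD were compared by limma 3.58.1 (R 4.3.3) over all clusters with Benjamini-Hochberg adjustment, and single genes by an exact two-sided permutation test over 924 regroupings. The threshold was an unadjusted p of 0.05, since the methods of the study use a one-way test at that level. Members named are those with a limma p under 0.05, the 3 lowest p of each role and a fixed set of central genes, and of the other lists those under 0.05 and the 2 lowest. Members and lists, drawn from general knowledge of gene function, were chosen with earlier results of these data known. Alternatives were the methods' one-way test, other normalisation, filters, array weights, covariates, the replicate block and leaving out each array.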

Additional observations from a re-analysis of the deposited data

Results flagged for a closer look

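In 88 groups of 6 arrays checked for a single extreme array, 4 had one by Dixon's criterion, and chance alone gives about 1 in 20 groups. CKS1B, the cyclin-dependent kinase subunit that was lower in CPS kidneys, had CPS replicate 6 at 5.76 on the log2 scale, with the next CPS array at 5.57. Mcm4, of the replicative helicase, had CPS replicate 1 at 9.51, below the next CPS array at 9.64. Cenpa, the centromeric histone, had LD replicate 2 at 7.08, above the next LD array at 6.83. Cdc27, of the anaphase-promoting complex, had LD replicate 6 at 8.67, below the next LD array at 8.85.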

How the results depend on the processing

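Of the 99 members, 2 were higher and 3 lower in CPS kidneys at an unadjusted limma p under 0.05. The higher count was 4 by the methods' one-way test and 1 with the replicate block, and 1 to 3 with one array left out. The lower count was 7 by the one-way test, 7 with limma's trended robust prior, 6 with tissue covariates, 5 with the level filter, 5 with the replicate block and 1 with a common array median, and 2 to 8 with one array left out (8 without CPS replicate 6, 7 without LD replicate 4, 6 without CPS replicate 1 and 2 without CPS replicate 2). Of all 14556 named genes, 259 were lower at the same threshold. That count was 373 by the one-way test, 321 with the trended robust prior, 310 with tissue covariates and 224 with the replicate block. It was 211 with the level filter, which tests fewer genes, 96 with a common array median and 195 to 330 with one array left out. Of the named genes, 428 were higher, or 489 by the one-way test, 390 with the replicate block and 331 to 630 with one array left out. A common array median also gave a members' median of 0.0091 and a replication median of -0.044, against 0.047 for all named genes. With one array left out the medians ran from -0.042 to -0.022 (members), -0.093 to -0.063 (replication), -0.070 to -0.039 (mitosis) and 0.052 to 0.108 (transport kinesins). Replicate numbers did not pair the arrays: same-numbered arrays correlated at -0.064 to 0.046, and the replicate block ended the calls of Cdk19, Melk and Spc24 and added those of Cdc42ep3 and Cks2l1. Calls added beside those named in the report were Ccnb3 and Cdc23 (one-way test), Ccnb3 (array weights), Ccnb3 and Cks2l1 (further quantile normalisation) and Cks2l1, Kif5a and Kif5c (covariates). With one array left out they were Cks2, Cdc42ep5, Cdk18 and Cks2l1 without CPS replicate 1, Kif5c without CPS replicate 2, Ccnb3 without CPS replicate 5, Ccnb3, Ccne2 and Cenpu without CPS replicate 6, Kif3c without LD replicate 2, Cks2l1 without LD replicate 3 and Cdc45 and Cks2l1 without LD replicate 4.

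Covariates turned the sign of 20 members, of which 1 was called, Kif5a (0.039, or -0.22 with covariates), named here after its values were seen. The members named in the report whose sign turned had no call under any of these settings. Ccnb1 gave 0.026 with a common array median, 0.017 after a further quantile normalisation and 0.065 with covariates (-0.032 to 0.016 with one array left out). Mcm4 gave 0.016 and 0.0001 under those normalisations (-0.035 to 0.0036 with one array left out), and Cenpa 0.020 under the common median (-0.055 to 0.035). With covariates E2f4 gave -0.066 and Kif2a -0.022. Of members outside that choice whose values are given above, Kif7 gave -0.0115 and Cdc37 0.034 with covariates, without a call. E2f4 ran from -0.015 to 0.058 and Cdc20 from -0.023 to 0.031 with one array left out.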
